A study of Mus musculus with 22 samples.

Results

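Neutrophils made up 4338 of the 95843 barcodes that passed a filter on detected genes and mitochondrial RNA, out of 179929 barcodes in 22 mouse single-cell RNA libraries. A barcode marks the droplet of a captured cell, and transcripts are counted by their unique molecular identifiers (UMIs). Members were chosen by a rule on measured values. A barcode needed at least 200 detected genes, at most 25% mitochondrial UMIs, at least 5 UMIs of S100a8 and S100a9 together and at least 1 UMI in 2 or more of Retnlg, Csf3r, Cxcr2, G0s2 and Il1r2. It also had to hold 0 UMIs of Cd79a (B cells), Cd3e (T cells), C1qa (macrophages), Epcam (epithelium) and Pecam1 (endothelium). Of the members, 4191 lay in 11 libraries of pooled organs (tissue), 114 in 10 libraries of sorted circulating cells (ntCZC) and 33 in 1 library of unsorted blood cells (PBMC).

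Neutrophils are short-lived granulocytes of the innate immune system that are made in the bone marrow and released into the blood. Their granules are filled in sequence during maturation, azurophil (primary) granules in the earliest precursors, then specific (secondary) granules with lactoferrin (Ltf), cathelicidin (Camp) and Ngp, and last gelatinase granules with Mmp9. In organs and at sites of injury they release chemokines and cytokines, among them the CXCR2 ligands Cxcl2 and Cxcl3 and interleukin 1 beta (Il1b), and transcription of these genes is driven by NF-kB.

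All mice carried the Prom1-CreERT2 and Rosa26ZSG alleles, in which a tamoxifen-inducible recombinase made in cells that express Prom1 turns on the fluorescent protein ZsGreen (ZSG) in those cells and their descendants. They bore no tumour and were labelled wild type (wt), Nalcn-het or Nalcn-null, Nalcn being the gene of a sodium leak channel. The methods describe a floxed Nalcn allele, so that deletion follows the Prom1-driven recombinase and cells outside that lineage keep the gene. ntCZC libraries held ZSG+ cells sorted from the blood of mice aged 551 to 649 days, 2 wt, 4 het and 4 null. Tissue libraries held dissociated kidney, liver, lung, stomach and epididymis (males) or uterus (females) of mice aged 551 to 654 days, hashtagged and pooled, 5 wt, 2 het and 2 null. Another 2 tissue libraries, of 610 and 647 days, had a title and a strain entry naming different genotypes and entered no comparison of groups. The PBMC library came from a wt male of 120 days. The hashtags were not used here, so no neutrophil has an organ of origin. Animals are not named in the labels, so n is a number of libraries and p-values measure the spread between them. Tissue wt replicates 1 and 2 (male, 571 days) and tissue het replicates 1 and 2 (male, 551 days) may each share a mouse. So may ntCZC het replicates 2 and 4 (male, 551 days), and ntCZC wt replicate 1 matches tissue wt replicates 1 and 2 in sex and age, so that both sides of the blood and organ comparison may hold the same mouse.

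The label was checked against 22 neutrophil markers that the rule did not use. Ratios of neutrophil to other barcodes were taken in the 8 grouped tissue libraries with at least 20 neutrophils. Mmp9, Hdc, Clec4d, Acod1, Trem1, Mxd1 and Pglyrp1 were among the 20 genes with the highest ratio. The other markers were not among these 20, which needed at least 200 CPM (counts per 1000000 UMIs) in at least 5 tissue libraries. Lcn2 had a mean of 641 CPM in neutrophils and 645 in the other barcodes. Mmp8, mostly under 200 CPM, had means of 101 and 8.41. The summed level of the 22 markers was 7880 to 21941 CPM in the 8 tissue libraries, 16719 in ntCZC wt replicate 1 and 23693 in PBMC. Summed over their lists, of 10 and 5 genes, markers of monocytes or macrophages and of dendritic cells or class II were lower. Sums over lists of unlike size do not compare levels per gene. The summed level of 10 monocyte or macrophage markers was 537 to 908 CPM in tissue, 1080 in ntCZC and 330 in PBMC, and that of the class II and dendritic list was 995 to 4547, 2795 and 66.1 CPM. No neutrophil barcode was shared between any of the 231 pairs of libraries. Tissue neutrophils also carried transcripts of red cells and of organ epithelia at higher levels than blood neutrophils. The 5 erythroid genes summed to 3821 to 28956 CPM in tissue, 33.2 in ntCZC and 165 in PBMC, above the neutrophil markers in 3 of the 8 tissue libraries, and 18.4% to 98.6% of tissue neutrophils held a haemoglobin UMI, against 6.73% in ntCZC and 15.2% in PBMC. Lung epithelial genes (76.6 to 10989 CPM), kidney tubule genes (208 to 2579), stomach genes (153 to 886) and liver genes (54.2 to 546) were present in all 8 tissue libraries and at 0 in both blood libraries.

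Depth and mitochondrial content differed between sources. The median neutrophil had 749 to 1925 UMIs in the 8 tissue libraries, 1522.5 in ntCZC wt replicate 1 and 882 in PBMC, and the summed neutrophil counts were 91337 to 4542685, 211080 and 30262 UMIs. Mitochondrial genes took a median of 10.3% to 18.1% of UMIs in tissue neutrophils, close to the 9.30% to 16.9% of the other barcodes there. In ntCZC wt replicate 1 the median was 0.190% in neutrophils and 2.09% in the other barcodes, and in PBMC 0.141% and 3.74%. The values behind the rule are given as a description. S100a8 was detected in 99.1% of members, S100a9 in 99.7%, the lipase inhibitor gene G0s2 in 90.9%, the decoy receptor gene Il1r2 in 73.6%, Retnlg in 69.3%, the G-CSF receptor gene Csf3r in 66.7% and the chemokine receptor gene Cxcr2 in 37.1%. Just inside the limits lay 73 barcodes with 5 S100 UMIs and 930 with 2 of the 5 further genes, and just outside lay 92 with 4 S100 UMIs and 422 with 1 of the 5. The 2291 barcodes that met the rule but for another cell type's gene had a median of 3161 UMIs against 1458.5 in members. Of these 2291, 2289 lay in tissue, as did all 3198 barcodes that met the rule but for the mitochondrial limit. The rule thus left out such barcodes almost only in tissue, so the blood and organ shares compared below were not selected alike.

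Beside the genes of the rule, the 20 genes that set tissue neutrophils apart from the other barcodes of their libraries, given with no test, were led by Gm5483 (median ratio 136 over 8 libraries), the gelatinase gene Mmp9 (76.5), the itaconate-producing enzyme gene Acod1 (76.4), the retinol dehydrogenase gene Rdh12 (60.2), the histamine-synthesis enzyme gene Hdc (38.6) and the lectin receptor gene Clec4d (37.0). They were followed by Ptgs2, which encodes cyclooxygenase 2 (27.2), Il1b (25.8), the activating receptor gene Trem1 (23.1), Slc2a3, Slc7a11, Cxcl2 (22.6), Adam8, Slc16a3, Arg2, Lmnb1, Mxd1, Pglyrp1, Ccr1 and Cd14 (15.7). The highest level among them was that of Cxcl2, at 5443 to 21340 CPM (median 14410), and the next that of Il1b, at 3323 to 10066 CPM.

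Promoters of the rule's main genes and of the chemokine pair are shown because S100a8 and S100a9 define the cells and Cxcl2 and Cxcl3, of one chemokine gene cluster, were both called lower in blood than in organ neutrophils. They are RefSeq sequences of GRCm38.p6 from 250 bases before to 50 bases after the start, 5′ to 3′ on the gene's strand, with motif matches in capitals. S100a8 lies at chr3:90668821-90669120 (plus strand), S100a9 at chr3:90695672-90695971 (minus), Cxcl2 at chr5:90903649-90903948 (plus) and Cxcl3 at chr5:90785851-90786150 (plus).
S100a8: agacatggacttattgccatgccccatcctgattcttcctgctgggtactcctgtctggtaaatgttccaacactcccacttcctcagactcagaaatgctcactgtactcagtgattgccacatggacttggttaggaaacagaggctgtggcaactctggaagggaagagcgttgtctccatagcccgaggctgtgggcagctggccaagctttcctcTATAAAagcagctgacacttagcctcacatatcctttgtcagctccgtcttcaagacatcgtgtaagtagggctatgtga
S100a9: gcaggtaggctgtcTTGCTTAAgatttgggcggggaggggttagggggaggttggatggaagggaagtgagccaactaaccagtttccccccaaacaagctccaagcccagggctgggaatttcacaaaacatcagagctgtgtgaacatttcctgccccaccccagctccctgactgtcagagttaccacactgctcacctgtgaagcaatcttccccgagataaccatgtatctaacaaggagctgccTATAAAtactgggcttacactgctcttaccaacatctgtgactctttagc
Cxcl2: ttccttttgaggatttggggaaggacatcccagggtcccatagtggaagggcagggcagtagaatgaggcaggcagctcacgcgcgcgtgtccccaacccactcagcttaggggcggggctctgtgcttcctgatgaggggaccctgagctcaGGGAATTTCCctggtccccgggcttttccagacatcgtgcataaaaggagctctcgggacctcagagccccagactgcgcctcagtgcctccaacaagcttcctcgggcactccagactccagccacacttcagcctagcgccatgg
Cxcl3: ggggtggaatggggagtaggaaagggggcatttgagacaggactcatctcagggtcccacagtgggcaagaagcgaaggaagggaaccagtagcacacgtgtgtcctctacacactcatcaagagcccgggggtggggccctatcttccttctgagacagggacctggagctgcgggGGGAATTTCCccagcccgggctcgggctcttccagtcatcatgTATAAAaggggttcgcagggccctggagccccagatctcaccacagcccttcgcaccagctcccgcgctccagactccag
The letters searched on both strands were TTGCNNAA (the C/EBP palindrome's core), GGGANTTTCC (an NF-kB site form) and TATAAA. Cxcl2 and Cxcl3 each held GGGAATTTCC, 97 and 73 bases before the start, a form found in 0.411% of 32851 promoters of the same length. S100a9 held TTGCTTAA 236 bases before its start (10.8% of promoters hold a match), and S100a8, S100a9 and Cxcl3 held TATAAA (13.6%). The NF-kB form was narrowed after the looser GGGNNNNNCC had been found in 50.8% of promoters. A match is a description of letters and not evidence of binding.

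The study asked whether loss of Nalcn changes the tagged cells in the blood. Neutrophils took a large share of ntCZC in the wt libraries and few or no barcodes in the het and null libraries. They were 104 of 491 passing barcodes in wt replicate 1 (21.2%, exact 95% binomial interval 17.6% to 25.1%) and 2 of 11 in wt replicate 3 (18.2%, 2.28% to 51.8%). In het libraries they were 0 of 108, 0 of 62, 0 of 161 and 1 of 578 (0.173%), where a count of 0 allows shares of up to 2.78%, 4.84% and 1.86%. In null libraries they were 5 of 138 (3.62%), 0 of 284 (up to 1.06%), 1 of 36 (2.78%) and 1 of 240 (0.417%). Both wt libraries lay above all 8 others, and het and null overlapped. Intervals and limits cover counting error only. Mean shares were 19.7% ± 2.12 (SD, n = 2) in wt, 0.0433% ± 0.0865 (n = 4) in het and 1.70% ± 1.77 (n = 4) in null. With 2 libraries against 4 no two-sided exact permutation test can go below 0.0667, and that value was reached for het against wt (difference of -19.6 percentage points) and null against wt (-18.0), each with an adjusted p of 0.200 over 6 comparisons. Null and het differed by 1.66 points (exact permutation p = 0.143, adjusted 0.286). Both wt libraries were male, while null replicates 1, 3 and 4 and het replicate 3 were female. The permutation test took no account of sex, so genotype and sex were not separated, above all in null against wt. Only ntCZC wt replicate 1 had 20 or more neutrophils, so levels in neutrophils of the sorted blood libraries rest on that library. That these neutrophils carried the tag rests on the sort alone, as ZSG transcripts were not examined here. The paper states that the Prom1 driver does not recombine blood-forming cells of the bone marrow. Whether untagged cells passed the sort was not tested. Leaving out ntCZC null replicate 2 gave a null minus het difference of 2.23 points (unadjusted p = 0.0286 by the exact permutation test). This was the lowest p of 8 leave-one-out runs and the smallest that this split of libraries allows. The library left out was male and the other null ntCZC libraries were female, and null replicates 3 and 4 held 1 neutrophil each.

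**Figure D1:**
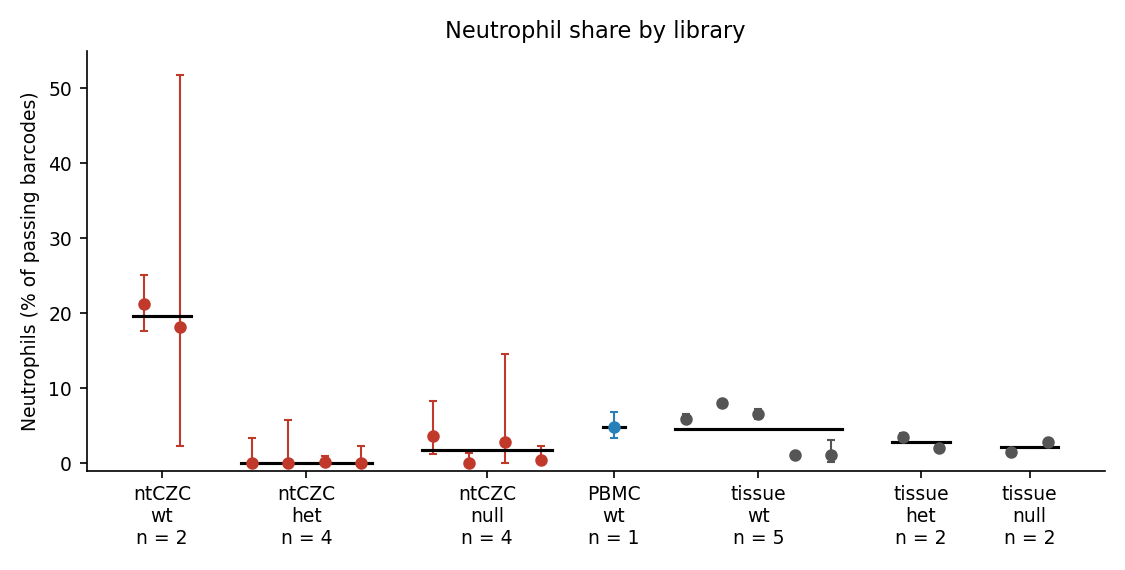
Neutrophils as a percentage of passing barcodes (vertical axis) in each grouped library (points, with exact 95% binomial intervals), by source and genotype; horizontal lines are group means and n counts libraries. The ntCZC wt points lie at 21.2% and 18.2%, above every other library, and the tissue wt points spread from 1.05% to 8.06%.

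In organs the neutrophil share was 5.94%, 8.06%, 6.55%, 1.14% and 1.05% in wt replicates 1 to 5, 3.55% and 1.98% in het and 1.46% and 2.79% in null. The wt libraries alone spanned the whole range of the other genotypes, and their 3 male libraries lay above the 2 female ones. Het minus wt was -1.79 points (exact permutation p = 0.476, adjusted 0.571) and null minus wt -2.42 points (p = 0.429, adjusted 0.571 by the same test), neither beyond the spread. The libraries without a group held 5.97% (male) and 5.36% (female). Over all genotypes, ntCZC held 4.64% ± 8.07 (SD, n = 10) and tissue 3.61% ± 2.61 (n = 9), a difference of 1.02 points by a permutation test (p = 0.676) that turned to -0.815 without ntCZC wt replicate 1 and to -0.482 without ntCZC wt replicate 3. PBMC held 33 of 679 (4.86%, 3.37% to 6.76%).

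Within the organs a few neutrophils carried most transcripts of the specific granule genes Ltf, Camp and Ngp. Ltf, Camp and Ngp together gave 1393 UMIs in the 4325 neutrophils of the 12 libraries with 20 or more, and 16 cells with at least 2 of the 3 genes held 1234 of them (88.6%). In 13 of those cells the genes reached 10 or more UMIs. Lipocalin 2 (Lcn2), another specific granule gene, was spread more widely, with 375 of its 4987 UMIs (7.52%) in the 16 cells. In the 8 grouped tissue libraries Lcn2 had a mean of 641 CPM in neutrophils and 645 CPM (29.2 to 1512) in the other barcodes. In ntCZC wt replicate 1 it was at 1279 CPM in neutrophils and 2.44 CPM in the other barcodes. How much of the Lcn2 in organ neutrophils was RNA of other cells was not tested. All 13 held Lcn2, 8 held Il1b and 2 held Cebpe, the transcription factor of the specific granule stage. None of the 13 held the proliferation genes Mki67 or Top2a or the azurophil genes Mpo or Elane. The 16 cells were spread over 7 organ libraries, with 6 of 367 neutrophils in tissue wt replicate 3, where they held 526 of 544 UMIs, 1 of 266 in het replicate 1 (104 of 111 UMIs), 2 of 1470 in wt replicate 2, 1 of 149 in wt replicate 4, 2 of 261 in the library labelled null replicate 3, and 1 and 3 in the libraries without a group. ntCZC wt replicate 1 held 1 UMI of the 3 genes in 104 neutrophils and PBMC 0 in 33. Neither blood library held a cell with at least 2 of the 3 genes. A count of 0 allows a share of up to 2.88% of the 104 cells and 9.09% of the 33. At the share seen in organs such cells could have been missed in both. Summed levels of Ltf, Camp and Ngp in organ neutrophils rest on these few cells.

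Interferon-stimulated genes, which encode antiviral proteins such as Isg15 and the Ifit family, were found together in a minority of neutrophils. After thinning each cell to 500 UMIs, at least 3 of 19 such genes were detected in 7 of 104 ntCZC neutrophils (6.73%, exact 95% interval 2.75% to 13.4%) and 2 of 32 in PBMC (6.25%, 0.766% to 20.8%). In the 8 grouped tissue libraries the share was 1.13% to 3.67%, with tissue wt replicate 2 highest and the next at 2.26%, and in the library without a group from a female it was 9.33%. B cells, taken as a background, held 0% to 2.81% in the 8 grouped tissue libraries, with wt replicate 2 highest, and 3.28% in the ungrouped female library. The interval of ntCZC overlapped that of each tissue library.

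**Figure D2:**
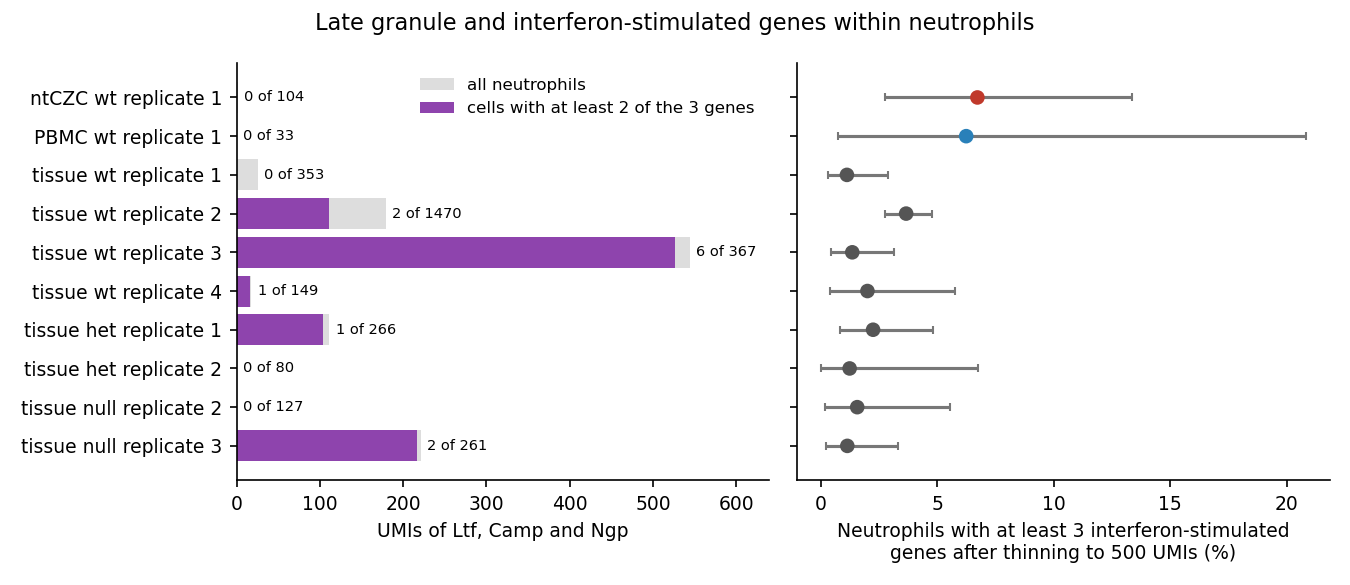
Left, UMIs of Ltf, Camp and Ngp summed over neutrophils of each grouped tissue library, ntCZC wt replicate 1 and PBMC (grey) and in cells with at least 2 of the 3 genes (purple), with the number of such cells beside each bar; right, percent of neutrophils with at least 3 interferon-stimulated genes after thinning to 500 UMIs, with exact 95% binomial intervals. Tissue wt replicate 3 holds 544 of the UMIs, 526 of them in 6 cells, and the right-hand points run from 1.13% to 6.73%; the libraries without a group are not drawn, the female one of which held 9.33%.

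Levels in blood and organ neutrophils were compared by summing UMIs over the neutrophils of each library, with ntCZC wt replicate 1 against the 8 grouped tissue libraries. Of 6703 genes tested, 277 were higher in ntCZC (4.13%) and 340 lower (5.07%) at a Benjamini-Hochberg adjusted p under 0.05 (edgeR, quasi-likelihood). The lone blood library is assumed to vary like the tissue libraries, and blood was sorted for ZSG while organs were dissociated, so source, tag and handling cannot be told apart. The median log2 change over all genes tested was -0.31, or -0.14 with the 870 genes at 0 UMIs in ntCZC placed at the bound that 3 UMIs allow. PBMC did not enter this fit, and its levels are given as separate values from a mouse of another age. In PBMC 1 UMI equals 33.0 CPM, and a count of 0 has an exact 95% Poisson upper limit of 122 CPM.

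Part of the inflammatory cytokine and NF-kB list was lower in blood neutrophils. Of 17 tested, 5 were lower and 0 higher, and the list's median change was -2.85 on the log2 scale (-2.81 with genes at 0 placed at their bound). Cxcl2 was at 602 CPM in ntCZC and 5443, 14410 and 21340 CPM (lowest, median and highest) in the 8 tissue libraries, and at 1784 CPM in PBMC. Every tissue library lay above both blood libraries, with the library labelled null replicate 2 the lowest of the 8. The mean ratio of tissue to ntCZC was 23.1, and the fitted log2 change was -4.91 ± 0.87 (SE, adjusted p = 0.00533). Cxcl3, a further CXCR2 ligand, had 0 UMIs in ntCZC, 33.0 CPM (1 UMI) in PBMC and 150, 309 and 946 CPM in the organs, which is at least 31.1-fold lower in ntCZC than the tissue mean (adjusted p = 0.0226). Ptgs2 was at 137 CPM in ntCZC, 99.1 in PBMC and 506 to 1605 in tissue. The NF-kB inhibitor genes Tnfaip3 (19.0 CPM in ntCZC, 0 in PBMC, 220 to 619 in tissue) and Nfkbiz (185, 397 and 564 to 1445) were also lower.

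Il1b did not follow this pattern. It was at 7040 CPM in ntCZC, 5717 in PBMC and 3323, 5400 and 10066 CPM in tissue, with both blood values inside the tissue range (log2 change -0.14 ± 0.55, adjusted p = 0.889). The chemokine genes Ccl3 and Ccl4 were at 213 and 133 CPM in ntCZC and at 0 in PBMC, but their tissue levels ran from 79.1 to 4356 and from 396 to 4977 CPM, highest in wt replicate 3, and the differences were not past the threshold (adjusted p = 0.299 and 0.106). The interleukin 1 receptor antagonist gene Il1rn (161 CPM against 245 to 1856, adjusted p = 0.0654) and the inflammasome gene Nlrp3 (365 against 380 to 1449, adjusted p = 0.149) also missed it. Acod1, from the marker list, was at 37.9 CPM in ntCZC, 33.0 in PBMC and 688, 1895 and 2436 CPM in tissue (log2 change -5.78 ± 1.03, adjusted p = 0.00575).

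For Cxcl2 and Acod1 the share of cells with a UMI was also lower in both blood libraries than in every grouped tissue library. After thinning to 500 UMIs, Cxcl2 was detected in 14.4% of ntCZC neutrophils, 25% in PBMC and 82.7% to 95.3% in tissue (21.2%, 24.2% and 92.5% to 98.0% unthinned). B cells of the tissue libraries, which should lack it, held it in 0.559% to 24.1% (up to 42.9% unthinned), and those of both blood libraries in 0%. Median depth of the B cells was 956 to 2456 UMIs in tissue, 1648.5 in PBMC and 2195.5 in ntCZC, where there were 6. Il1b was detected in 96.2%, 90.6% and 73.2% to 94.7% of neutrophils, so that ntCZC lay above the tissue range in share but inside it in level, against at most 11.8% of tissue B cells. Acod1 was detected in 1.92%, 3.12% and 28.3% to 66.0%, against 0% to 9.26% of tissue B cells (up to 13.4% unthinned). Both blood shares lay inside that range, which is a background of the tissue libraries. In the blood libraries' own B cells Acod1 was at 0%, among 132 thinned cells in PBMC and 6 in ntCZC. Acod1 levels in neutrophils rested on 8 UMIs in ntCZC (37.9 CPM) and 1 in PBMC (33.0 CPM). The other barcodes of these libraries held it at 1.22 and 1.60 CPM. Cxcr4, which B cells also express, was detected in 10.4% to 21.5% of tissue neutrophils.

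Immediate early and stress genes, which are switched on within minutes of stimulation or of cell dissociation, were lower in ntCZC for 7 of 16 tested and higher for 0 (median log2 change -0.98). Egr1 was at 19.0 CPM in ntCZC, 33.0 in PBMC and 376, 644 and 1066 CPM in tissue (log2 change -5.50 ± 0.80, adjusted p = 0.00189). The heat shock gene Hspa1b had 0 UMIs in both blood libraries and was at 76.6 to 435 CPM in tissue, at least 15.7-fold lower in ntCZC. Fosb (90.0 against 440 to 1034 CPM), Ier3 (261 against 641 to 1721), Atf3 (90.0 against 324 to 588), Nr4a1 (85.3 against 228 to 471) and Hspa1a (1 UMI against 79.4 to 348 CPM) made up the 7. PBMC held Fosb at 529 CPM, Atf3 at 330 CPM and Nr4a1 at 231 CPM, all 3 inside the tissue range, and Ier3 at 330 CPM, below it. Fos itself was at 2364 CPM in ntCZC and 1125 to 2159 CPM in tissue (adjusted p = 0.727) and was not called.

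Among hypoxia and glycolysis genes, 2 of 13 tested were lower and 0 higher (median -0.04). Hilpda, a lipid droplet gene induced by hypoxia, had 0 UMIs in both blood libraries and was at 438, 638 and 955 CPM in tissue, at least 46.4-fold lower in ntCZC (adjusted p = 6.18e-04). Vegfa, the vascular growth factor gene, had 3 UMIs in ntCZC (14.2 CPM, exact 95% Poisson interval 2.93 to 41.5), 0 in PBMC and 92.2 to 349 CPM in tissue. The glucose transporter genes Slc2a1 (85.3 against 31.6 to 122 CPM) and Slc2a3 (540 against 179 to 679) and the lactate dehydrogenase gene Ldha (284 against 98.5 to 519) lay inside the tissue range. After thinning, Hilpda was detected in 0 of 104 ntCZC neutrophils, which allows a share of cells with a UMI at this depth of up to 2.88%, a limit on detection and not on expression, and in 15.9% to 25.3% of tissue neutrophils, against 0.964% to 8.42% of tissue B cells.

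Survival genes were lower for 4 of 10 tested and higher for 0 (median -1.81, or -1.31 with the gene at 0 placed at its bound). These were the antiapoptotic paralogs Bcl2a1b (19.0 CPM against 182 to 580, 0 in PBMC) and Bcl2a1d (28.4 against 47.5 to 134, 0 in PBMC, called in 12 of 19 settings), whose near-identical copies can share reads, the proapoptotic BH3-only gene Bcl2l11 (56.9 against 206 to 580, 66.1 in PBMC) and the kinase gene Pim1 (474 against 1070.3 to 2279, 826 in PBMC). Genes for and against apoptosis thus both stood among them. Mcl1, on which neutrophil survival depends, was at 3781 CPM in ntCZC and 1013 to 2376 CPM in tissue (adjusted p = 0.251).

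Calls of higher levels in blood neutrophils were made in the granule, trafficking and transcription factor lists, a small part of the 277. Of 13 specific and gelatinase granule genes tested, 2 were higher and 0 lower (median 0.60). Haptoglobin (Hp), which binds free haemoglobin, was at 2464 CPM in ntCZC, 2511 in PBMC and 104, 303 and 624 CPM in tissue (log2 change 2.47 ± 0.55, adjusted p = 0.0147). Annexin A1 (Anxa1), which restrains migration, was at 1004 CPM in ntCZC, 529 in PBMC and 134 to 361 CPM in tissue, and kept its call in 13 of 19 alternative settings. Mmp9 (1767 CPM, 2776 in PBMC, 209 to 985 in tissue) and Mmp8 (388, 430 and 23.7 to 150) lay above every tissue library in both blood libraries, but missed the threshold in ntCZC (adjusted p = 0.108 and 0.0629). The azurophil genes were too low to test, at 0 to 4.97 CPM summed in the grouped tissue libraries and 4.74 in ntCZC.

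Of 16 trafficking genes tested, 2 were higher, the selectin ligand gene Selplg (943 CPM against 145 to 336, 1124 in PBMC) and the leukotriene B4 receptor gene Ltb4r1 (137 against 24.8 to 54.7, and 33.0 in PBMC, inside the tissue range), and 2 were lower, the adhesion receptor gene Icam1 (37.9 against 83.2 to 177, 0 in PBMC) and the platelet-activating factor receptor gene Ptafr (118 against 291 to 832, 231 in PBMC), with a median of -0.24. Of 19 alternative settings, Selplg kept its call in 13, Icam1 in 12, Ptafr in 17 and Ltb4r1 in 5, and Ltb4r1 reversed in 1 (a log2 change of -0.0503 against 1.43, with more genes of other cells required at 0). Icam1 had a mean of 132 CPM in tissue neutrophils and 136 CPM (75.1 to 198) in the other tissue barcodes, against 485 and 45.2 CPM for Ptafr. The PBMC value of Ltb4r1 is 1 UMI, with an exact 95% Poisson interval of 0.837 to 184 CPM.

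Of 9 transcription factor genes tested, 3 were higher and 1 lower (median 1.03). Cebpd, a C/EBP factor of the granulocyte lineage, was at 1047 CPM in ntCZC, 859 in PBMC and 87.0, 129 and 197 CPM in tissue, with no overlap (log2 change 2.54 ± 0.40, adjusted p = 0.00313). Klf2, a factor that restrains myeloid activation, was at 1601, 1619 and 226 to 536 CPM (adjusted p = 0.0211). Cebpe was at 47.4 CPM (10 UMIs) against 0 to 10.9 CPM, with 66.1 in PBMC, and its call was kept in 6 of 16 alternative settings. Fosl2 was lower, at 237 against 383 to 912 CPM, while PBMC (496 CPM) lay inside the tissue range, and its call was kept in 10 of 19. In the oxidase and effector list 1 of 10 was higher (median 0.85), Padi4, the histone citrullinase gene of extracellular traps, at 256 CPM in ntCZC, 99.1 in PBMC and 14.9 to 86.2 CPM in tissue. The oxidase subunit genes Cybb (426 against 306 to 651 CPM) and Ncf1 (497 against 156 to 444) were not called.

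Further lists had few calls or rested on low counts. None of 8 protease inhibitor genes was called in either direction (median 0.14), with Stfa2l1 at 422 CPM in ntCZC and 166 to 364 CPM in tissue. Of 6 clock genes 2 were lower (Nr1d2, 0 UMIs against 15.4 to 47.5 CPM, called in 10 of 18 settings, and Per1, 42.6 against 111 to 293, with PBMC inside the tissue range at 231, called in 10 of 19 settings), with a median of -6.48 that became -0.32 with the 4 genes at 0 placed at their bound. Of 6 glucocorticoid response genes Klf9 was lower (0 UMIs against 10.9 to 64.6 CPM; median 0.17). Stmn1 was lower among 4 proliferation genes (0 UMIs against 18.1 to 71.2 CPM), whose median of -6.64 became -0.02 with genes at 0 placed at their bound. Among the 22 neutrophil markers outside the rule, Lrg1 was higher (990 CPM against 91.6 to 293, 430 in PBMC) and Acod1 lower, with a median of 0.39. The genes of the rule, with no test, stood at 43742 (S100a8), 58186 (S100a9), 1734 (Cxcr2) and 2653 (Csf3r) CPM in ntCZC against tissue means of 11480, 17945, 298 and 765 CPM, while G0s2 (317 against 7052 CPM) and Il1r2 (128 against 1272) were at lower levels.

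**Figure D3:**
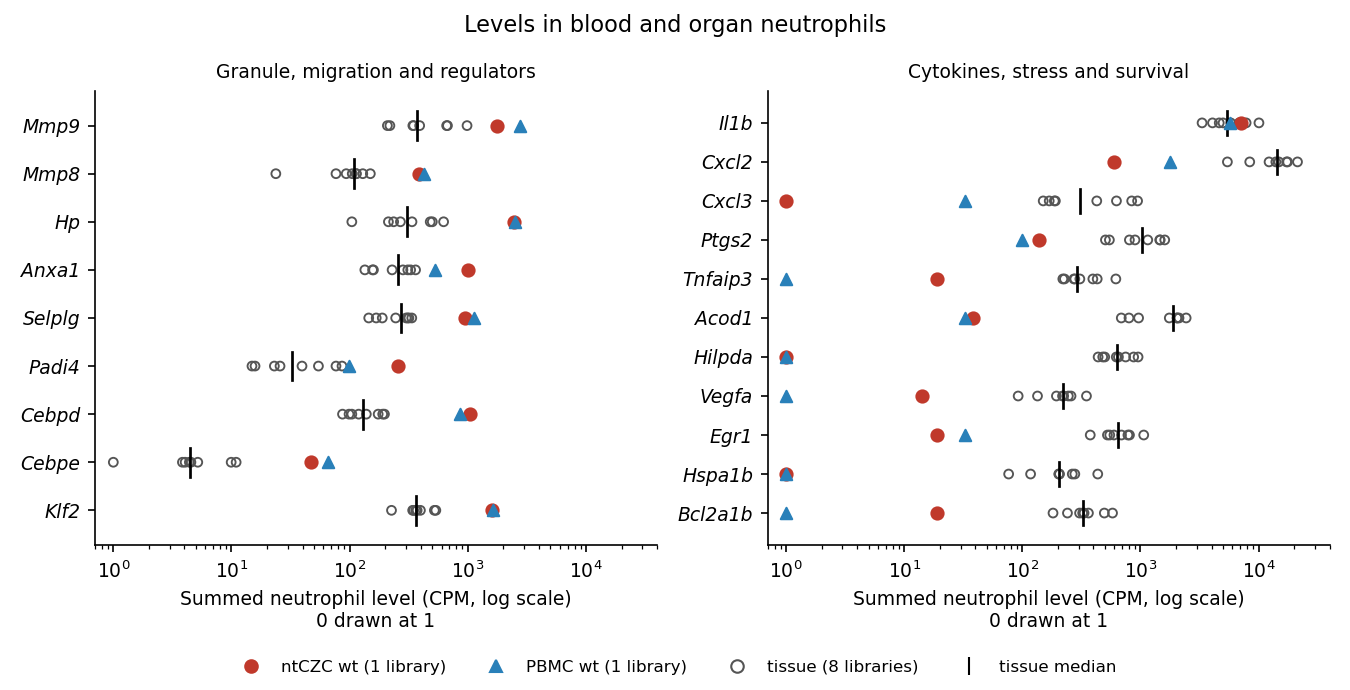
Summed neutrophil level (CPM, log axis, 0 drawn at 1) of 20 genes in ntCZC wt replicate 1 (red), PBMC (blue triangle) and 8 tissue libraries (open circles, with their median as a line). Cebpd, Hp and Klf2 of both blood libraries lie above all tissue circles, Cxcl2, Acod1, Hilpda and Egr1 lie below them, and Il1b lies among them.

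**Figure D4:**
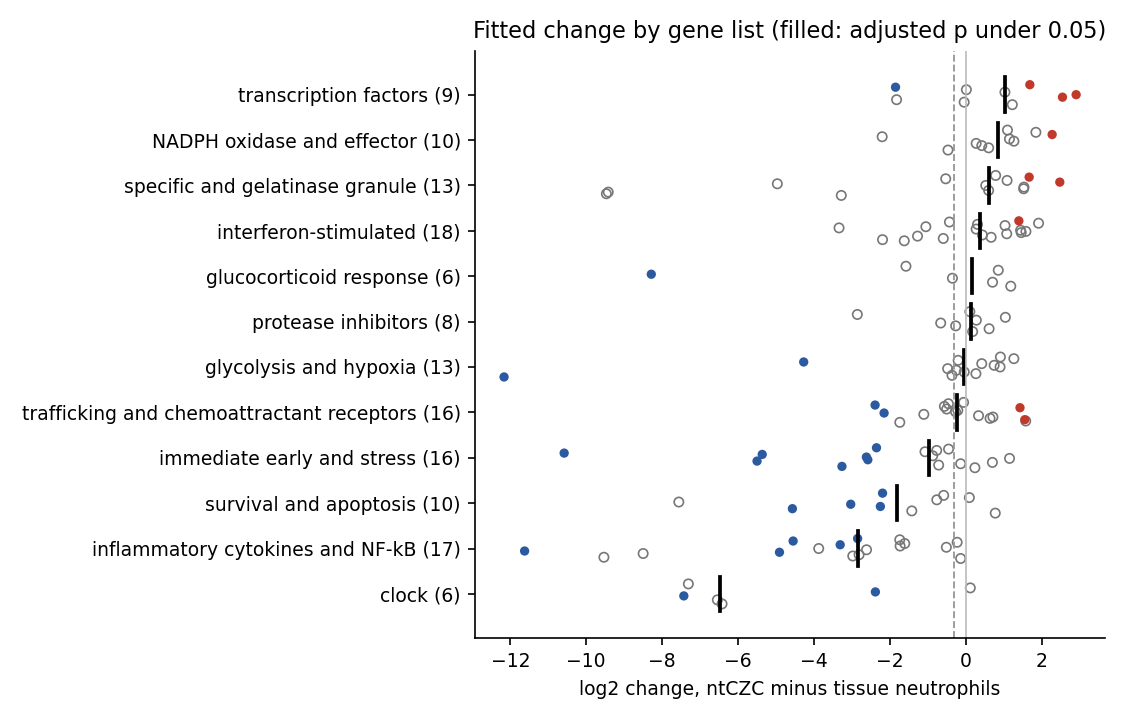
Fitted log2 change of ntCZC against tissue neutrophils (horizontal axis) for each tested gene of 12 lists, with the number tested in brackets; filled points passed an adjusted p of 0.05, black lines are list medians and the dashed line is the median of all genes, -0.31. The cytokine list has a median of -2.85 and the transcription factor list one of 1.03.

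The largest fitted changes were mostly in genes outside the neutrophil lists. The 8 named as lower, Gpx3, Spp1, Hba-a2, Hbb-bt, Gm26870, Hilpda, Fxyd2 and Cxcl3, had 0 UMIs in ntCZC, as had 154 of all 340 genes called lower. Gpx3, made mainly in kidney, was at 726 to 3067 CPM in tissue neutrophils, at least 120-fold lower in ntCZC, and its level in the other barcodes of the same libraries was close to that in neutrophils (median ratio 1.10). The ratio of neutrophils to other barcodes was 1.57 for osteopontin (Spp1) and 0.937 for the kidney sodium pump subunit gene Fxyd2, against 22.6 for Cxcl2, 76.4 for Acod1 and 14.0 for Cxcl3. Erythroid (4 of 5), kidney (3 of 4), stomach (3 of 3) and liver (1 of 3) markers were called lower in ntCZC. Among genes named as higher, Cd200r3 had 13 UMIs in ntCZC (61.6 CPM) and 0 to 0.881 CPM in tissue. All 13 UMIs lay in the 3 neutrophils with at least 3 genes of a basophil set (Mcpt8, Cpa3, Ms4a2, Fcer1a and Cd200r3). As this set counts Cd200r3 itself, it is not a check by other genes alone. The basophil and mast cell list summed to 166 CPM in ntCZC and 0 to 20.5 CPM in tissue. The others were Zfp971, the histamine H2 receptor gene Hrh2 (56.9 CPM against 0 to 6.41, 99.1 in PBMC), Hsh2d, AC163018.1, AI467606, March1, a ubiquitin ligase gene (242 against 0 to 24.8, 231 in PBMC), and Relt, a TNF receptor family gene (204 against 4.97 to 24.9, 165 in PBMC).

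Other values moved with the blood and organ difference. In barcodes with Csf1r and fewer than 5 UMIs of S100a8 and S100a9, a set outside the neutrophil rule, Cxcl2 was at 2.58 CPM in ntCZC and 1112 CPM (mean of 8 libraries) in tissue, Hilpda at 7.75 and 473, Egr1 at 4.31 and 217, and Hspa1b at 9.47 and 379. Klf2 was at 1398 CPM there in ntCZC and 253 in tissue, and Cebpd at 146 and 53.6. Platelet genes summed to 280 CPM in ntCZC neutrophils, 198 in PBMC and 0 to 83.0 in tissue, and Csf1r was detected in 29.8% of ntCZC, 15.2% of PBMC and 6.30% to 16.7% of tissue neutrophils. The part of dissociation, of free RNA and of mitochondrial content in the difference was not tested. The settings that follow tested fewer genes, 4602 and 3408 in that order against 6703 in the main fit. With tissue neutrophils of at most 10% mitochondrial UMIs, 161 genes were higher and 138 lower, and with each cell thinned to 500 UMIs, 66 and 164.

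Genotype was compared in the neutrophils of 4 wt, 2 het and 2 null tissue libraries in 1 edgeR fit of 5443 genes with sex as a covariate. Null against wt gave 9 genes higher (0.165%) and 0 lower, with 273 genes at an unadjusted p under 0.05. The count became 0 without null replicate 2, 2 without null replicate 3, 3 without het replicate 1, het replicate 2 or wt replicate 4, and 1 when more genes of other cells were required at 0. The last of these settings tested 3081 genes against 5443. The 9 were Spag11b, Gpx5, Defb20, Defb42, Cst12, Spink11, Wfdc10, Clu and 9230104L09Rik, most of them known as secreted products of the epididymis (defensins, cystatins, protease inhibitors and a glutathione peroxidase). None is a neutrophil gene of the lists. Spag11b was at 1084 and 975 CPM in neutrophils of the null libraries, 70.3 and 76.6 CPM in het, and 46.6, 12.8, 7.69 and 4.97 CPM in wt (log2 change 5.90 ± 0.56, adjusted p = 4.86e-04). In the other barcodes Spag11b was at 6264 and 6318 CPM in null, 2949 and 5193 in het, and 1137, 138, 87.5 and 6.31 in wt. Its ratio of neutrophils to other barcodes was 0.173 and 0.154 in null, 0.0238 and 0.0148 in het, and 0.0410 to 0.788 in wt. Why the ratio differed was not tested. In the 8 grouped tissue libraries each of the 9 genes was lower in neutrophils than in the other barcodes wherever the latter held it (Gpx5, Defb20 and Spink11 were at 0 in both in wt replicate 4). The library labelled null replicate 3 is labelled female with uterus among its organs, and its neutrophils held Spag11b, Gpx5 (879 CPM) and Xist (910 CPM) together.

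**Figure D5:**
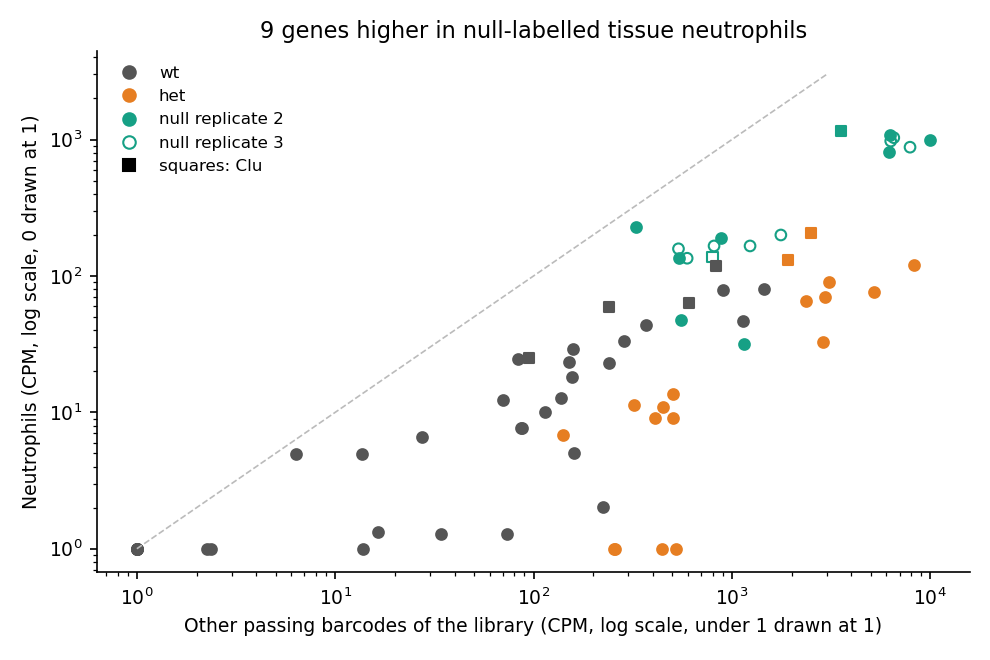
Level of the 9 genes called higher in null neutrophils (vertical axis, CPM, log scale) against their level in the other passing barcodes of the same library (horizontal axis, CPM, log scale), by genotype label; the dashed line marks equal levels. The null points stand at the upper right, with Spag11b at 1084 and 975 CPM in neutrophils and 6264 and 6318 CPM in other barcodes. The het points of Spag11b lie at 70.3 and 76.6 CPM in neutrophils and 2949 and 5193 CPM in other barcodes.

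No call by genotype was made among the neutrophil lists in organs. Over all 5443 genes tested, 0.165% were called higher and 0% lower in null, and 0% in either direction in het. A count of 0 in lists of this size is thus near the share over all genes and sets the lists apart in no way. None of 13 granule, 10 oxidase, 16 trafficking, 17 cytokine, 16 immediate early, 12 interferon-stimulated or 10 survival genes tested was called in null or het against wt. In null the list medians were -0.09, -0.06, -0.40, -0.63, 0.03, -0.91 and -0.59 in that order, beside 0.01 over all genes tested, and in het 0.13, 0.78, 0.53, 0.37, 0.42, -0.20 and 0.29, beside -0.13. Cxcl2 was at 5443 and 8412 CPM in null, 17570 and 17255 in het, and 14829, 12257, 21340 and 13990 in wt. Both null libraries were below all 6 others for this gene, a difference not past the threshold. Nalcn itself had 0 UMIs in the neutrophils of all libraries with 20 or more, so its deletion could not be checked in these cells, and Prom1, the driver of the recombinase, was at 0 in both blood libraries and 0 to 9.94 CPM in tissue.

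Het against wt gave 0 genes in either direction by edgeR (0% and 0%), with 788 at an unadjusted p under 0.05 and 31 called by DESeq2 (19 higher, 12 lower). DESeq2 gave no adjusted p for 4116 of the 5443 genes here. The genes with the smallest p did not pass. Lpl (lipoprotein lipase) was at 32.8 and 54.4 CPM in het and 303 to 593 CPM in wt (adjusted p = 0.0598), Fabp4 at 20.4 and 21.9 against 54.7 to 174 (0.196) and Mt1 at 65.7 and 150 against 404 to 643 (0.196), each with no overlap. Snai1, AW011738 and the NF-kB inhibitor gene Nfkbie had the smallest p among genes with higher levels in het (adjusted p = 0.196, 0.196 and 0.211). Female against male gave Xist higher and Ddx3y lower (0.0184% each), and neither was called without wt replicate 4. Xist was at 910 and 1029 CPM in neutrophils of the female libraries and 0 in the 6 male ones. Ddx3y, on the Y chromosome, was at 10.4 and 0 CPM against 227 to 471. Of 204 genes at an unadjusted p under 0.05 for sex, DESeq2 called only Ddx3y. The next genes by p, Eif2s3y, Clu, Cav1 and Snai1, did not pass.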

How the data were processed

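Per the file headers and labels, the authors aligned droplet 3' reads to mm10 with Cell Ranger (2.1.1 in the labels, 3.0.2 in the matrix headers) and deposited filtered matrices of whole-number UMI counts for 31053 genes, with no normalization. Free RNA and doublets had not been removed from the counts, and no doublet caller was run here; the rule left out barcodes with a gene of another cell type. Neutrophil counts were summed per library, with at least 20 neutrophils, and tested with edgeR 4.0.16 (filterByExpr, TMM scaling, quasi-likelihood F test, Benjamini-Hochberg adjusted p under 0.05); DESeq2 1.42.0 was an alternative. The edgeR script was tested on simulated counts. Shares of passing barcodes were compared by two-sided permutation of library labels, exact where a group had fewer than 10 libraries. Shares of cells with a UMI were also taken after thinning each cell to 500 UMIs; B cells needed at least 2 Cd79a UMIs. Intervals are exact at 95%, and a count of 0 allows 3.

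Members, gene lists and tests were chosen with earlier results of these data known. Named genes were the lists, up to 8 genes per direction with the largest fitted change among called genes of at least 20 CPM (where fewer than 3 passed, the 3 with the smallest p), and the 20 leading genes of at least 200 CPM in at least 5 tissue libraries. Aldoa, whose symbol has more than 1 identifier, was not tested in its list. Libraries with fewer than 20 neutrophils, such as tissue wt replicate 5 (3 neutrophils), entered no gene fit. Some genes of the lists are not reported here.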

Additional observations from a re-analysis of the deposited data

Results flagged for a closer look

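Among 39 groups of 4 to 10 libraries examined for a value far from the others, 4 held one, where chance gives about 1 in 20 groups. The neutrophil share of ntCZC het replicate 4 was 0.173%, a single cell, and the other 3 het libraries were at 0%, so that any cell in 1 library would have set it apart. Interferon-stimulated genes summed to 2128 CPM in the neutrophils of tissue wt replicate 2, with the next of the 8 grouped tissue libraries at 1104 CPM. The ungrouped female tissue library held 1876 CPM and ntCZC wt replicate 1 held 1525 CPM. Among the same 8 libraries, wt replicate 2 also had the highest share of neutrophils with at least 3 such genes after thinning, 3.67% against 2.26% in the next, while the ungrouped female library held 9.33% and ntCZC wt replicate 1 held 6.73%. Lung epithelial genes summed to 10989 CPM in the neutrophils of tissue null replicate 2, with the next of the 8 at 3280 CPM and the ungrouped female library at 9041 CPM. Outside the comparisons, 3198 barcodes, all in tissue libraries, met the neutrophil rule in every respect but held over 25% mitochondrial UMIs. S100a8 and S100a9 together gave a median of 32 UMIs in them against 43 in the members, and G0s2 was detected in 91.7% of them against 90.9%.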

How the results depend on the processing

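Leaving out each library in turn moved the share differences to between -21.1 and -18.1 points for ntCZC het against wt, -19.5 and -16.5 for null against wt, 1.02 and 2.23 for null against het, -2.66 and -0.908 for tissue het against wt, -3.30 and -1.55 for tissue null against wt, and -0.815 and 1.58 for ntCZC against tissue. The last reversed without ntCZC wt replicate 1 and, at -0.482, without ntCZC wt replicate 3. Null against het was past 0.05 only without ntCZC null replicate 2 (unadjusted p = 0.0286 by the exact permutation test, the lowest of 8 runs). No other setting for the shares changed a direction or a side of the threshold.

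For ntCZC against tissue, the 617 genes became 299 with at most 10% mitochondrial UMIs, 230 with thinned cells and 1201 with PBMC joined to ntCZC (chosen after seeing the data), and 528 to 784 with a tissue library left out. Genes tested were 6703 in the main fit, 4602 with at most 10% mitochondrial UMIs, 3408 with thinned cells and 4730 with PBMC joined. Leaving out ntCZC wt replicate 1 left no blood library and gave no value. RLE scaling gave 327 higher and 334 lower, against 277 and 340, and DESeq2 332 and 457 (522 of its 789 shared). Of 48 called genes of the lists and named set, 22 kept their call in every setting that tested them, 26 lost it in at least 1, and Ltb4r1, 1 of the 26, reversed (a log2 change of -0.0503 against 1.43) when more genes of other cells were required at 0. Also among the 26 were Cebpe (kept in 6 of 16), Fosl2 and Per1 (10 of 19), Icam1 (12 of 19), Bcl2a1d (12 of 19), Anxa1 and Selplg (13 of 19). Cxcl2, Cxcl3, Tnfaip3, Egr1, Fosb, Ier3, Hilpda, Vegfa, Bcl2a1b, Cebpd and Hp kept theirs in all 19. Thinning moved the median change of the shared genes by -0.22.

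For null against wt in tissue, the 9 genes became 45 with no filter on low counts and 1 with more genes of other cells at 0, and 0 to 12 with a library left out: 0 without null replicate 2, 2 without null replicate 3, and 3 without het replicate 1, het replicate 2 or wt replicate 4. For het against wt, the 0 genes became 31 with DESeq2, 102 with no filter, 1 with no sex covariate and 0 to 3 with a library left out (3 without wt replicate 1 and 2 without wt replicate 2). For female against male, the 2 genes became 1 with DESeq2, 27 with no filter, 6 under a stricter neutrophil rule and 0 to 3 with a library left out (0 without wt replicate 4). Genes tested were 5443 in the main fit, 18103 with no filter and 3081 with more genes of other cells at 0. For het against wt, DESeq2 gave no adjusted p for 4116 of the 5443 genes. At most 10% mitochondrial UMIs left too few libraries for these 3 comparisons, which were not run. With the replicate number as a block in place of sex (replicate block), null against wt gave 30 genes and het against wt 17, but same-numbered libraries did not deviate together (correlations of -0.149 to 0.0962), so the numbers do not pair the samples. The cause of these changes was not tested. Depth limits blood neutrophils: 3 UMIs equal 14.2 CPM in ntCZC wt replicate 1, and PBMC held 33 cells.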
